A study of Mus musculus with 18 samples.

Results

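Il6, Lif, Osm, Il6ra, Il6st, Lifr, Osmr, Stat3 and Socs3 were taken by symbol from a table of 23951 genes measured in sorted epidermal cells of mice with psoriasis-like skin disease and of control mice. They are 3 cytokines of the IL-6 family, 4 of their receptor chains, the transcription factor that the receptors activate, and its feedback inhibitor. The 9 genes were chosen by name, with earlier results of these data known. Lif, Osmr and Stat3 rose in each of the 4 DKO* populations against their control counterparts, whereas Lifr fell in 3 of the 4 and Socs3 fell in both basal keratinocyte populations. Il6 and Il6st passed as higher in the non-mutant bulge cells, in libraries whose summed endothelial markers, at 819 to 2373 FPKM, were also the highest of all, and the Il6 call was lost without mouse 815 (adjusted p = 0.0523).

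IL-6 family cytokines signal through receptor complexes that contain gp130, the product of Il6st. IL-6 first binds its own alpha chain, encoded by Il6ra, LIF pairs gp130 with the LIF receptor chain encoded by Lifr, and oncostatin M, the product of Osm, can pair gp130 with the oncostatin M receptor chain encoded by Osmr. The complexes activate JAK kinases, which phosphorylate STAT3, and STAT3 in turn raises Socs3, whose product binds gp130 and the kinases and ends the signal. In skin, the family is known for its part in wound healing and in psoriasis, where STAT3 is active in keratinocytes.

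The cells were sorted from ear epidermis as CD45- CD49f-high cells, with CD34+ cells taken as bulge hair follicle stem cells (HF-SCs) and CD34- cells as basal keratinocytes (b-KCs). DKO* mice carried floxed JunB and c-Jun alleles, K5-Cre-ERT, a tamoxifen-dependent Cre driven by the keratin 5 promoter of basal epidermal cells, and the mT/mG reporter, in which recombined cells turn from Tomato to GFP. GFP cells of these mice are the mutant fraction and Tom cells the non-mutant fraction of the same mice 814, 815 and 817. Controls (Co), mice 810, 825 and 828, carried the K5-driven Cre and mT/mG with wild-type or heterozygous floxed alleles, and the labels do not divide their cells by colour. Mice were of both sexes and mixed background, 8 weeks old, and received 4 daily intraperitoneal injections of 2 mg tamoxifen, controls included, and cells were collected at day 7. Each of the 6 groups, named by cell type and by Co, GFP or Tom, holds 1 library from each of 3 mice. The 2 DKO* fractions of a cell type were compared with the same Co libraries, so those comparisons are not independent of each other.

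Values are FPKM, mapped fragments scaled by transcript length and by library size, which can be set side by side between genes. Libraries had an implied depth of 16508000 to 26280600 reads. Jun lay at 835 to 1086 FPKM in the Co libraries, at 29.6 to 88.4 in the GFP libraries and at 163 to 614 in the Tom libraries, and Junb at 436 to 772, 37.2 to 77.5 and 208 to 402 FPKM, so the Tom fractions also lay below Co for both deleted genes. Cd34 lay at 161 to 889 FPKM in the HF-SC libraries and at 0.341 to 2.53 in the b-KC libraries. Some libraries stood apart in markers of other cells. The summed FPKM of 16 endothelial markers was 819 to 2373 in HF-SC Tom, 83.3 to 141 in HF-SC Co, 2.41 to 44.1 in HF-SC GFP and 1.88 to 12.5 in the 9 b-KC libraries. Against HF-SC Co, all 16 passed the test as higher in HF-SC Tom. A level in such sorted bulk samples cannot tell fewer cells of a type from less RNA per cell: the 2 cannot be told apart. Krt14 was listed at 0 in 3 b-KC libraries and Krt15 in 1 HF-SC Co library although both are abundant in the other libraries of their cell type, so an exact 0 in these data may be a failed estimate.

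Changes were tested with limma on log2(FPKM + 1), where a difference of 1 is a doubling for well expressed genes and less than the true change for genes near 1 FPKM. Genes with an adjusted p under 0.05 were called, over the 12751 genes tested. All 9 genes entered the test, Lif and Osm through DKO* libraries only, as neither reached 1 FPKM in any Co library. In HF-SC GFP against Co, 6 of the 9 were called against 38.5% of all genes tested, and in HF-SC Tom against Co 6 of 9 against 44.4%. In b-KC GFP against Co the count was 7 of 9 against 41.6%, and in b-KC Tom against Co it was 7 of 9 against 45.9%. With an adjusted p under 0.01 and a log2 change of at least 2, 1 of the 9, Il6 in HF-SC Tom, was called over the 4 comparisons, where 3.07%, 4.09%, 1.87% and 2.75% of all genes were. The same rule called Il6 and Il6st between the HF-SC fractions (1.98% of all genes), 0 of the 9 between the b-KC fractions (0.0863%), and Il6ra between control cells (5.65%). It called Il6ra for the difference between the GFP changes of the cell types (0.863%) and Il6st for that between the Tom changes (1.98%). The median log2 change of the 9 genes was 0.87, 0.90, -0.37 and 0.20 in the 4 comparisons with Co (HF-SC GFP, HF-SC Tom, then the b-KC pair in the same order), beside -0.05, -0.04, -0.03 and -0.02 over all genes tested. In that order, libraries of the groups did not overlap for 8, 6, 8 and 8 of the 9 genes, beside 52.7%, 49.0%, 59.0% and 65.6% of all genes tested.

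**Figure D1:**
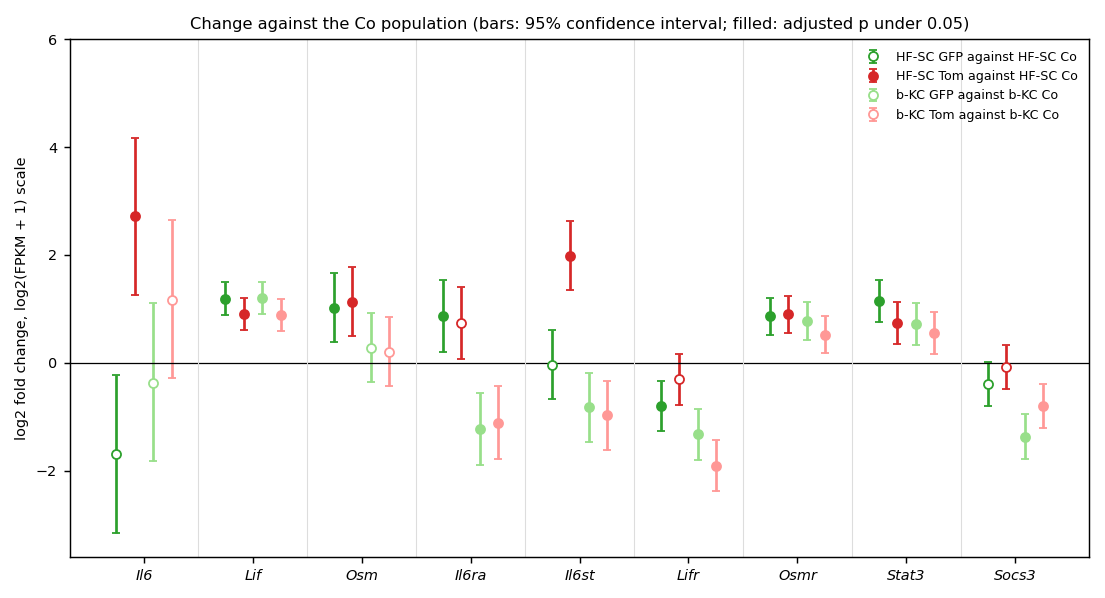
Log2 fold change of the 9 genes on the log2(FPKM + 1) scale (y axis) in the 4 DKO* populations against the Co population of the same cell type (colours), with bars for the 95% confidence interval of the limma fit and filled points for an adjusted p under 0.05. Lif, Osmr and Stat3 lie above 0 with filled points in all 4, Il6ra lies below 0 with filled points in b-KCs and above 0 in HF-SCs, where HF-SC GFP is filled and HF-SC Tom, at 0.74, is open, and Il6 and Il6st are highest in HF-SC Tom at 2.72 and 1.99.

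**Figure D2:**
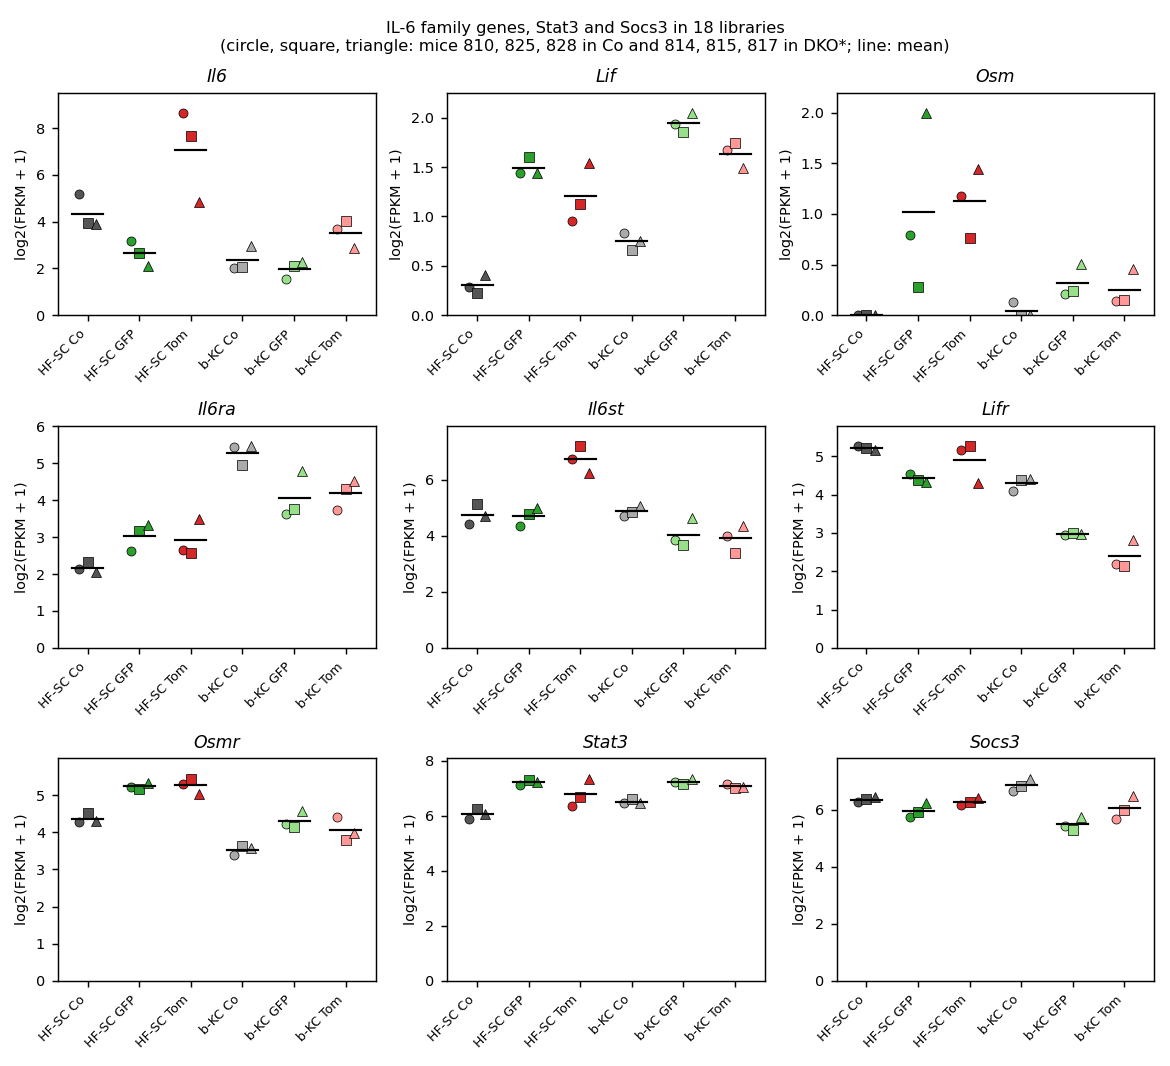
Level of each of the 9 genes in the 18 libraries as log2(FPKM + 1) (y axis) by group (x axis), 1 symbol per mouse and a line at the group mean, with y axes that differ between panels. Il6 in HF-SC Tom spans 27.8 to 401 FPKM, whereas Lif, Osmr and Stat3 in each DKO* group lie above every Co library of their cell type.

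Il6 encodes the cytokine IL-6, which keratinocytes, endothelial cells and leukocytes can all make (chromosome 5, 30339701 to 30346508, plus strand, NCBIM37). Control HF-SCs held 35.1, 14.4 and 13.8 FPKM, mutant HF-SCs 7.91, 5.30 and 3.29 and non-mutant HF-SCs 401, 200.1 and 27.8. Among b-KCs, the controls held 3.05, 3.21 and 6.67 FPKM, mutant cells 1.95, 3.26 and 3.85 and non-mutant cells 11.7, 15.3 and 6.23. The HF-SC GFP libraries lay below all HF-SC Co libraries, and HF-SC Tom lay above them in mice 814 and 815 but within their range in mouse 817. The mean of 209.8 ± 187 FPKM in HF-SC Tom stood against 21.1 ± 12.2 in controls (SD, n = 3 each), a log2 change of 2.72 (SE 0.69, adjusted p = 0.00498). Without mouse 814 the change was 1.92 (adjusted p = 0.0494), and the call was lost without mouse 815 (2.42, adjusted p = 0.0523) and in a fit of the 2 groups alone (adjusted p = 0.0584), and without mouse 817 the change was 3.82 (adjusted p = 2.72e-06). For HF-SC GFP against Co the difference was -1.70 (SE 0.69, adjusted p = 0.0631), which did not pass, while it passed without mouse 814, without mouse 817 or in the 2 groups alone. In b-KCs, the differences were -0.37 for GFP (adjusted p = 0.698) and 1.17 for Tom (adjusted p = 0.176), neither of which passed. The b-KC Tom difference passed without mouse 817 (1.5, adjusted p = 0.00557) and in the compared groups alone (adjusted p = 0.0272).

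Set against Tom cells of the same mice, GFP cells had less Il6 in every mouse. In HF-SCs, where 2 of the 9 genes were called against 8.63% of all genes tested, Il6 was lower in GFP than in Tom by a log2 difference of -4.41 (SE 0.69, adjusted p = 3.97e-04). The differences within mice 814, 815 and 817 were -5.50, -5.00 and -2.75. In a fit of these 2 groups alone the adjusted p was 0.0542, and with the mouse as a block in that fit it was 0.0121. In b-KCs the differences within mice were -2.10, -1.94 and -0.58, with an adjusted p of 0.396 that became 0.0122 without mouse 817. Control HF-SCs had more Il6 than control b-KCs by 1.99 (adjusted p = 0.0243), a call lost without mouse 810 (1.41, adjusted p = 0.211), mouse 815 or mouse 825. The Tom changes of the cell types differed by 1.55 (adjusted p = 0.327), and by 2.32 without mouse 817 (adjusted p = 0.00806). Both Il6 and the endothelial markers were highest in the HF-SC Tom group. The marker sum was 2219, 2373 and 819 FPKM in its mice 814, 815 and 817, where Il6 was 401, 200.1 and 27.8 FPKM. This sum was also above Co in b-KC Tom, at 5.79 to 12.5 against 2.04 to 3.78 FPKM. At 83.3 to 141 FPKM in HF-SC Co, it lay above b-KC Co and above HF-SC GFP at 2.41 to 44.1, as Il6 did. In b-KC GFP it was 7.50, 7.68 and 1.88 FPKM in mice 814, 815 and 817, where Il6 was 1.95, 3.26 and 3.85. The part of the endothelial markers in the Il6 result was not tested.

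**Figure D3:**
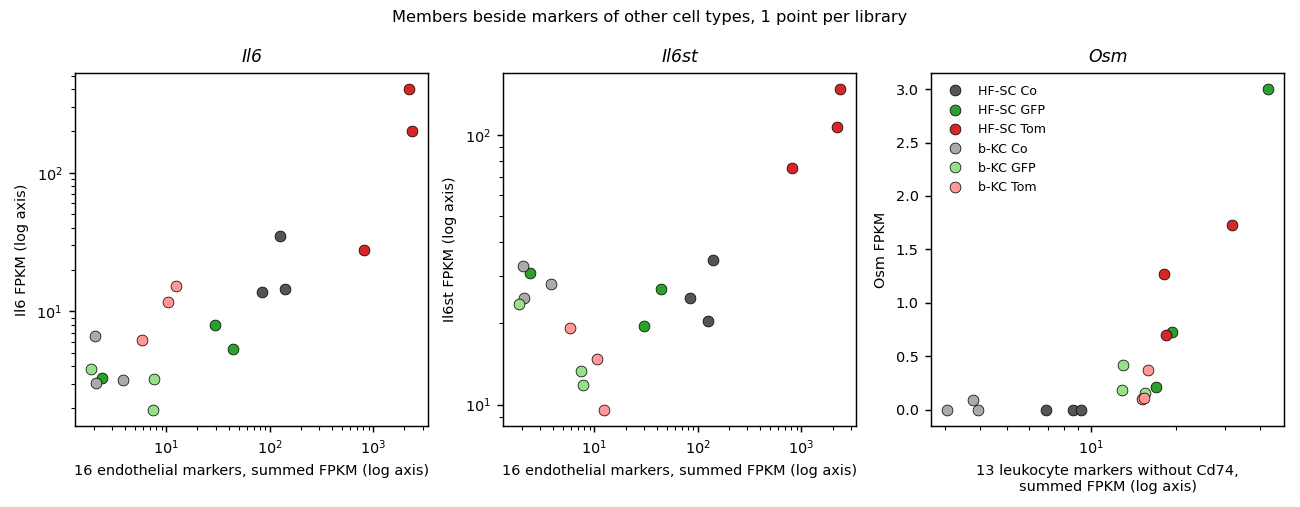
FPKM of Il6, Il6st and Osm (y axes) against the summed FPKM of endothelial markers or of leukocyte markers without Cd74 (x axes, log scale), 1 point per library, coloured by group, with a log y axis for Il6 and Il6st. The 3 HF-SC Tom libraries are at the right in the first 2 panels, with endothelial sums of 819 to 2373 FPKM, and Osm is highest in HF-SC GFP of mouse 817 at 3.0 FPKM, where the leukocyte sum is highest at 42.8.

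Lif encodes leukaemia inhibitory factor (chromosome 11, 4157560 to 4172517, plus strand, NCBIM37). Its HF-SC levels were 0.216, 0.170 and 0.321 FPKM for controls, 1.72, 2.04 and 1.71 for mutant and 0.941, 1.18 and 1.92 for non-mutant cells. Its b-KC levels were 0.778, 0.582 and 0.682 FPKM for controls, 2.84, 2.63 and 3.14 for mutant and 2.19, 2.34 and 1.82 for non-mutant cells. Every DKO* library lay above every Co library of either cell type. On the log2(FPKM + 1) scale Lif rose by 1.19 (SE 0.14, adjusted p = 9.81e-06) in HF-SC GFP, 0.90 (adjusted p = 1.03e-04) in HF-SC Tom, 1.2 (adjusted p = 2.22e-05) in b-KC GFP and 0.89 (adjusted p = 1.51e-04) in b-KC Tom. The mean FPKM was 7.74, 5.71, 4.21 and 3.11 times that of Co, and with a pseudocount of 0.1 the log2 changes were 2.54, 2.08, 1.93 and 1.51. The HF-SC ratios rest on Co levels with an implied 18, 13 and 31 reads in mice 810, 825 and 828. Lif passed the filter on low values only through the DKO* libraries, in which it is high. The call held in all 4 comparisons under every alternative tried, the fit without a filter on low values included.

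Between fractions, Lif did not pass in either cell type, with differences of 0.29 (95% confidence interval -0.01 to 0.59) in HF-SCs and 0.31 (0.01 to 0.61) in b-KCs for GFP less Tom, and within mice GFP was the higher in 2 of 3 and in 3 of 3. Without mouse 817 the HF-SC difference was 0.48 (adjusted p = 0.0156). Lif was lower in HF-SC Co than in b-KC Co by -0.44 (adjusted p = 0.0152), a call lost without mouse 810, 825 or 828. The rise did not differ detectably between the cell types, with a difference of -0.01 (95% confidence interval -0.43 to 0.41) for GFP and 0.02 (-0.41 to 0.44) for Tom.

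Il6 and Lif are shown with the 250 bases before their RefSeq starts because these 2 windows hold TGANTCA, letters that AP-1 dimers of Jun and Fos proteins can bind and whose Jun and Junb subunits were deleted in the GFP cells. Of the 9 genes, 8 have such a window in the RefSeq table of build GRCm38.p6, with 9 windows in all, and 2 of the 9 windows hold TGANTCA on either strand, as do 6.75% of all 32851 windows. Capitals mark the match, which begins at base -249 from the start for Il6 (chr5:30012864-30013113, plus strand) and at base -228 for Lif (chr11:4257318-4257567, plus strand). The match of letters is not a measured site. The sequences, 5′ to 3′, are:
Il6: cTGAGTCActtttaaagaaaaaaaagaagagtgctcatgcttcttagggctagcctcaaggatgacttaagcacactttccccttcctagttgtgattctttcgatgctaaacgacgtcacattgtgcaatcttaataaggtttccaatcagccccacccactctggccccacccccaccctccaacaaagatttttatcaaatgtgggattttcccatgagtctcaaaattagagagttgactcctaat
Lif: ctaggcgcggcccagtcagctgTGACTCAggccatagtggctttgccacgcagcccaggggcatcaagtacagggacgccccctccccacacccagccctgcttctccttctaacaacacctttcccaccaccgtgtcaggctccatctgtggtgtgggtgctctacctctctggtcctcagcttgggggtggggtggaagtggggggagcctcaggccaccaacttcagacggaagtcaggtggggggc

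Osm encodes oncostatin M, a cytokine known mainly from T cells, macrophages and neutrophils (chromosome 11, 4136423 to 4141029, plus strand, NCBIM37). It was listed at 0 in the 3 control HF-SC libraries, and it stood at 0.728, 0.211 and 3.0 FPKM in mutant HF-SCs and at 1.27, 0.698 and 1.73 in their non-mutant counterparts. Control b-KCs held 0.0904, 0 and 0 FPKM, mutant b-KCs 0.159, 0.183 and 0.419, and non-mutant b-KCs 0.0990, 0.106 and 0.371. Each DKO* library was above the Co libraries of its cell type, and mouse 817 was the highest of the 3 mice in all 4 DKO* populations. The b-KC values stand on few reads, with an implied 5 to 20 reads in the 6 DKO* libraries. The 0.0904 FPKM of b-KC Co of mouse 810 also stands on an implied 5 reads. The 3.0 FPKM of HF-SC GFP of mouse 817 stands on an implied 162 reads. At the depth of the HF-SC Co libraries, 3 reads would have been 0.0543 to 0.0708 FPKM. On the log2(FPKM + 1) scale the difference from Co was 1.02 (SE 0.30, adjusted p = 0.0136) in HF-SC GFP and 1.13 (SE 0.30, adjusted p = 0.00659) in HF-SC Tom, sizes that depend on the added 1 and were 3.21 and 3.65 with an added 0.1. Osm reached 1 FPKM in 3 libraries, all of DKO* HF-SCs, so it entered the test only through groups in which it is high. The HF-SC GFP call was lost without mouse 828 (adjusted p = 0.0509) and in the 2 groups alone (adjusted p = 0.0677), and no test was made without mouse 814 or 817, where Osm missed the filter. In b-KCs, the differences of 0.28 (adjusted p = 0.476) and 0.20 (adjusted p = 0.606) did not pass.

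The summed leukocyte markers of each DKO* library were above those of Co, as Osm was, although the cells were sorted as CD45-. Of 14 leukocyte markers, 2 to 4 were at 1 FPKM or more in the Co libraries and 3 to 9 in the DKO* libraries. Their sum was 11.4 to 15.4 FPKM in HF-SC Co, 129 to 166 in HF-SC GFP, 113 to 209 in HF-SC Tom, 7.12 to 10.0 in b-KC Co, 243 to 413 in b-KC GFP and 183 to 820.5 in b-KC Tom, and Cd74, an antigen presentation gene that keratinocytes can also express, made up most of it in the DKO* libraries. Without Cd74, a choice made after its values were seen, the sum was 6.90 to 9.20 in HF-SC Co, 17 to 42.8 in HF-SC GFP and 18.1 to 31.8 in HF-SC Tom. In b-KCs it was 3.07 to 3.95 in Co, 12.9 to 15.5 in GFP and 15.2 to 16 in Tom. In both HF-SC fractions and in b-KC Tom, mouse 817 had the highest sum without Cd74, as it had the highest Osm. In b-KC GFP that sum was highest in mouse 814, at 15.5 FPKM, while Osm was highest in mouse 817. With all 14 markers, mouse 817 had the lowest sum of HF-SC Tom, at 113 FPKM. Ptprc, which encodes CD45, was at 0 to 0.0414 FPKM in the Co libraries and highest in the mutant and non-mutant HF-SCs of mouse 817, at 0.946 and 0.539 FPKM. The part of leukocyte RNA in the Osm result was not tested.

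Among the receptors, Il6ra, the alpha chain that gives cells their own IL-6 binding, fell in both DKO* fractions of b-KCs and rose in HF-SC GFP (chromosome 3, 89673246 to 89717084, minus strand, NCBIM37). Levels in HF-SCs came to 3.36, 3.99 and 3.19 FPKM for controls, 5.12, 8.01 and 9.10 for the mutant fraction and 5.32, 4.95 and 10.3 for the non-mutant one. Levels in b-KCs came to 42.5, 30.1 and 43.5 FPKM for controls, 11.4, 12.6 and 26.8 for the mutant fraction and 12.2, 18.7 and 22.1 for the non-mutant one. Control b-KCs thus had the highest levels and control HF-SCs the lowest, and each DKO* population lay between them without overlap with its Co group. Among control cells, where 6 of the 9 genes were called against 51.9% of all genes tested, Il6ra was lower in HF-SCs by -3.12 (SE 0.31, adjusted p = 8.78e-07). This was the largest difference of the 9 genes between the control cell types, whose libraries did not overlap for 7 of the 9 beside 69.7% of all genes tested. In b-KCs it fell by 1.23 (SE 0.31, adjusted p = 0.00652) in GFP and by 1.11 (SE 0.31, adjusted p = 0.00970) in Tom. These calls were lost without mouse 815 (adjusted p = 0.0640) and without mouse 828 (adjusted p = 0.0507), respectively. In HF-SCs it rose by 0.87 (SE 0.31, adjusted p = 0.0389) in GFP, a call lost without mouse 810, 815, 825 or 828 and without the filter on low values. The HF-SC Tom difference of 0.74 (adjusted p = 0.0687) did not pass, and its adjusted p was 0.0378 under a random mouse block.

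The size of the Il6ra change was also compared between the cell types. Of the 9 genes, 2 were called for the difference between the HF-SC GFP change and the b-KC GFP change, against 12.5% of all genes tested, and 3 for that between the Tom changes, against 15.8%. For Il6ra the difference was 2.10 (SE 0.45, adjusted p = 0.00628) between the GFP changes and 1.85 (SE 0.45, adjusted p = 0.00996) between the Tom changes. The first was lost without mouse 815 (adjusted p = 0.0813), and the second without mouse 810 (adjusted p = 0.0599) or mouse 828 (adjusted p = 0.0650). GFP and Tom differed by 0.13 (95% confidence interval -0.54 to 0.80) in HF-SCs and by -0.12 (-0.79 to 0.55) in b-KCs.

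Il6st encodes the shared chain gp130 (chromosome 13, 113265216 to 113297068, plus strand, NCBIM37). Control HF-SCs held 20.5, 34.4 and 24.9 FPKM, mutant HF-SCs 19.5, 26.8 and 30.9, and non-mutant HF-SCs 107, 148 and 75.5. Among b-KCs, the controls held 24.9, 28.1 and 32.8 FPKM, mutant cells 13.3, 11.8 and 23.6 and non-mutant cells 14.8, 9.59 and 19.3. The HF-SC Tom libraries were above all others, while the 6 DKO* libraries of b-KCs were below the b-KC Co libraries. In HF-SC Tom it rose by 1.99 against Co (SE 0.30, adjusted p = 7.93e-05), to 110.1 ± 36.3 from 26.6 ± 7.08 FPKM (SD, n = 3 each). HF-SC GFP was lower than HF-SC Tom by -2.03 (SE 0.30, adjusted p = 2.39e-04), with differences of -2.40, -2.42 and -1.26 within mice 814, 815 and 817. Both calls held under every alternative tried. HF-SC GFP differed from Co by -0.04 (95% confidence interval -0.68 to 0.60). In b-KCs Il6st fell by 0.83 (SE 0.30, adjusted p = 0.0369) in GFP and by 0.97 (SE 0.30, adjusted p = 0.0159) in Tom. The GFP call was lost without mouse 810, 814, 815, 825 or 828 and without the filter on low values, with adjusted p up to 0.149, and the Tom call without mouse 815 or 828. The Tom change in HF-SCs exceeded that in b-KCs by 2.96 (SE 0.43, adjusted p = 2.82e-04). As for Il6, the sum of the endothelial markers was highest in the same 3 HF-SC Tom libraries, at 819 to 2373 FPKM, and it was lowest of the 3 in mouse 817, as was Il6st, while its part in the Il6st result was not tested. In b-KCs, where Il6st fell, that sum was at most 12.5 FPKM over the 16 markers.

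Lifr, the chain that LIF binds beside gp130, was the only 1 of the 9 genes called lower in HF-SC GFP (chromosome 15, 7079559 to 7147489, plus strand, NCBIM37). Control HF-SCs held 37.8, 36.2 and 35.1 FPKM, mutant HF-SCs 22.4, 19.9 and 19.2 and non-mutant HF-SCs 35.2, 37.8 and 18.6. Its b-KC levels were 16, 19.9 and 20.4 FPKM for controls, 6.72, 6.94 and 6.81 for mutant and 3.57, 3.40 and 6.10 for non-mutant cells. HF-SC Tom of mouse 817 was at the level of the GFP cells, and the other 2 Tom libraries were at that of Co. Lifr fell by 0.80 (SE 0.22, adjusted p = 0.00928) in HF-SC GFP, by 1.33 (SE 0.22, adjusted p = 3.50e-04) in b-KC GFP and by 1.91 (SE 0.22, adjusted p = 1.07e-05) in b-KC Tom. These 3 calls held under every alternative tried. The HF-SC Tom difference was -0.31 (SE 0.22, adjusted p = 0.272), and 0.00 without mouse 817. The Tom changes differed between the cell types by 1.60 (SE 0.31, adjusted p = 0.00228), a call lost without mouse 815 (1.30, adjusted p = 0.0518). Within HF-SC Tom, Lifr was lowest in mouse 817, where the endothelial sum was also the lowest of the 3 (2219, 2373 and 819 FPKM in mice 814, 815 and 817). The HF-SC Co libraries, with Lifr at 35.1 to 37.8 FPKM, had endothelial sums of only 83.3 to 141 FPKM. The part of those markers in the Lifr result was not tested. Control HF-SCs had more Lifr than control b-KCs by 0.93 (SE 0.22, adjusted p = 0.00242). Between fractions neither cell type passed with all mice, but without mouse 817 GFP was below Tom in HF-SCs by -0.76 (adjusted p = 7.59e-04) and above Tom in b-KCs by 0.80 (adjusted p = 0.00173).

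Osmr, the chain that oncostatin M and IL-31 receptors contain, lies on the same chromosome and rose where Lifr fell (chromosome 15, 6763577 to 6824313, minus strand, NCBIM37). Its HF-SC levels were 18.4, 22.0 and 18.9 FPKM for controls, 36.4, 35.0 and 39.2 for mutant and 38.9, 42.8 and 31.7 for non-mutant cells. Levels in b-KCs came to 9.49, 11.5 and 10.9 FPKM for controls, 17.8, 16.7 and 22.8 for the mutant fraction and 20.3, 12.9 and 14.8 for the non-mutant one. All 12 DKO* libraries were above the Co libraries of their cell type. It rose by 0.87 (SE 0.16, adjusted p = 6.24e-04) in HF-SC GFP, 0.90 (adjusted p = 3.94e-04) in HF-SC Tom, 0.78 (adjusted p = 0.00174) in b-KC GFP and 0.52 (adjusted p = 0.0156) in b-KC Tom. The last call was lost without mouse 810 (adjusted p = 0.0719) or mouse 814 (adjusted p = 0.119). Control HF-SCs had more Osmr than control b-KCs by 0.84 (SE 0.16, adjusted p = 5.11e-04), as they had more Lifr. Between GFP and Tom the difference was -0.03 (95% confidence interval -0.37 to 0.32) in HF-SCs and 0.25 (-0.09 to 0.60) in b-KCs, and neither interaction passed, at 0.09 (-0.40 to 0.58) and 0.37 (-0.12 to 0.86).

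The balance of the 2 chains was therefore different in the DKO* cells. The FPKM ratio of Osmr to Lifr was 0.487, 0.608 and 0.539 in HF-SC Co and 0.594, 0.578 and 0.536 in b-KC Co. In HF-SCs it was 1.62, 1.75 and 2.04 in GFP and 1.11, 1.13 and 1.71 in Tom, and in b-KCs it was 2.64, 2.41 and 3.35 in GFP and 5.67, 3.78 and 2.43 in Tom. Lifr was thus the more abundant mRNA in the 6 Co libraries and Osmr in the 12 DKO* libraries. The ratio was formed after the levels were seen and carries no test.

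**Figure D4:**
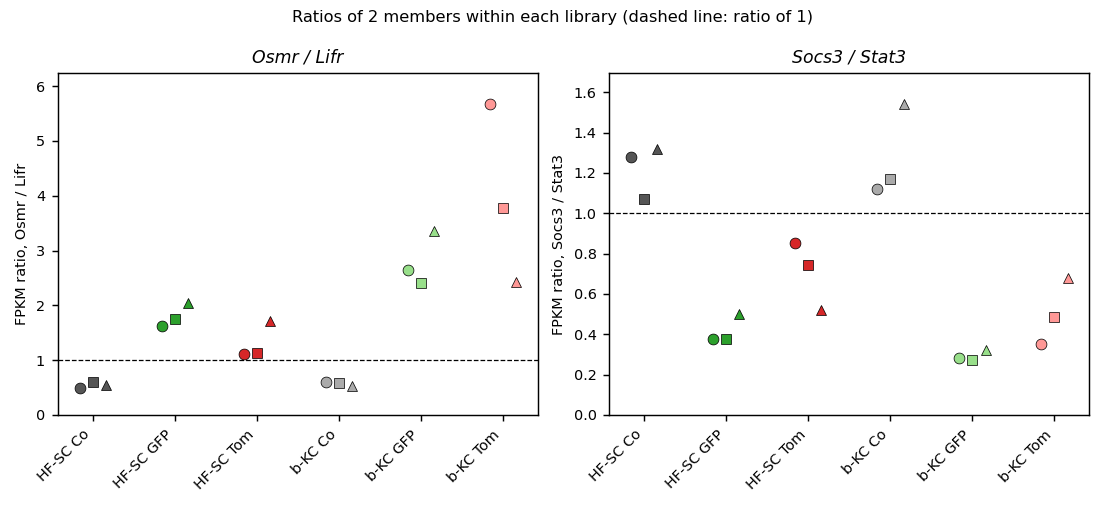
Ratio of Osmr to Lifr FPKM and of Socs3 to Stat3 FPKM (y axes) by group (x axis), 1 symbol per library, with a dashed line at 1. The Co libraries lie at 0.487 to 0.608 for Osmr to Lifr and at 1.07 to 1.54 for Socs3 to Stat3, and the DKO* libraries at 1.11 to 5.67 and at 0.272 to 0.853.

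Stat3, the transcription factor at which the receptors converge, was among the most abundant of the 9 mRNAs (chromosome 11, 100746412 to 100800854, minus strand, NCBIM37). Levels in HF-SCs came to 58.5, 75.7 and 65.4 FPKM for controls, 138, 158 and 149 for the mutant fraction and 81.9, 103 and 161 for the non-mutant one. Among b-KCs, the controls held 88.1, 96.6 and 87.6 FPKM, mutant cells 148, 141 and 163 and non-mutant cells 143, 129 and 131. The 3 GFP libraries of each cell type lay close together, whereas HF-SC Tom of mouse 817 was higher than the other 2 Tom libraries. Stat3 rose by 1.15 (SE 0.18, adjusted p = 1.62e-04) in HF-SC GFP, 0.74 (adjusted p = 0.00437) in HF-SC Tom, 0.72 (adjusted p = 0.00598) in b-KC GFP and 0.56 (adjusted p = 0.0212) in b-KC Tom. In means, this was 2.23, 1.73, 1.66 and 1.48 times the Co level. The HF-SC Tom change was 0.47 without mouse 817 (adjusted p = 0.0109) and was not called in the 2 groups alone (adjusted p = 0.0685), and the b-KC Tom call was lost without mouse 810, 815 or 828 (adjusted p up to 0.0799). The HF-SC GFP and b-KC GFP calls held under every alternative tried. Control HF-SCs had less Stat3 than control b-KCs in each of the 3 mice, by -0.45 (adjusted p = 0.0507), and with the mouse as a block the adjusted p was 0.0248 as a random and 0.00551 as a fixed block. HF-SC GFP and Tom differed by 0.41 (adjusted p = 0.212), and by 0.68 without mouse 817 (adjusted p = 0.00553). The values count mRNA, and phosphorylated STAT3 was not measured in them.

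Socs3, the feedback inhibitor of gp130 signalling, did not move with Stat3 (chromosome 11, 117827393 to 117831361, minus strand, NCBIM37). Control HF-SCs held 75.0, 81.2 and 86.3 FPKM, mutant HF-SCs 52.1, 59.6 and 74.4 and non-mutant HF-SCs 69.8, 76.3 and 83.6. Its b-KC levels were 99.0, 113 and 135 FPKM for controls, 41.5, 38.4 and 52.6 for mutant and 50.4, 62.4 and 88.9 for non-mutant cells. All 6 DKO* libraries of b-KCs were below the b-KC Co libraries, and the HF-SC Tom libraries overlapped with HF-SC Co. Socs3 fell by 1.37 (SE 0.19, adjusted p = 9.79e-05) in b-KC GFP and by 0.80 (SE 0.19, adjusted p = 0.00344) in b-KC Tom, and both calls held under every alternative tried. In HF-SCs the differences were -0.39 (adjusted p = 0.122) in GFP, with an adjusted p of 0.00773 without mouse 817, and -0.08 (adjusted p = 0.765) in Tom. The GFP change of HF-SCs exceeded that of b-KCs by 0.98 (SE 0.27, adjusted p = 0.0270), a call lost without mouse 810, 815, 825 or 828 (adjusted p up to 0.199). The Tom changes differed by 0.72 (adjusted p = 0.0871), with an adjusted p of 0.0169 under the random mouse block. Control HF-SCs had less Socs3 than control b-KCs by -0.50 (adjusted p = 0.0387), which was lost without mouse 810, 815, 825 or 828 and without the filter on low values.

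Between the GFP and Tom fractions of b-KCs, limma called 0 of the 9 genes, where 1.71% of all genes tested were. For Socs3 the differences within mice 814, 815 and 817 were -0.27, -0.69 and -0.75, with an adjusted p of 0.181. Its adjusted p was 0.0327 under a random mouse block and 0.0842 under a fixed block in these groups. Without mouse 817, Il6 and Lifr were called.

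The FPKM ratio of Socs3 to Stat3 was 1.28, 1.07 and 1.32 in HF-SC Co and 1.12, 1.17 and 1.54 in b-KC Co. In HF-SCs it was 0.377, 0.378 and 0.499 in GFP and 0.853, 0.742 and 0.518 in Tom, and in b-KCs 0.281, 0.272 and 0.323 in GFP and 0.353, 0.486 and 0.679 in Tom. Socs3 mRNA thus exceeded Stat3 mRNA in the 6 Co libraries and was below it in the 12 DKO* libraries. Like the other ratio, it was formed after the levels were seen and has no test.

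Socs3 is shown with its upstream bases because it was the only gene of the 8 with a window that held TTCNNNGAA, the letters that STAT dimers can bind, which 7.02% of all 32851 windows hold on either strand. Capitals mark the match, which begins at base -154 from the RefSeq start (GRCm38.p6, chr11:117969367-117969616, minus strand). No measurement of binding was made there. The sequence, 5′ to 3′ on the minus strand, is:
Socs3: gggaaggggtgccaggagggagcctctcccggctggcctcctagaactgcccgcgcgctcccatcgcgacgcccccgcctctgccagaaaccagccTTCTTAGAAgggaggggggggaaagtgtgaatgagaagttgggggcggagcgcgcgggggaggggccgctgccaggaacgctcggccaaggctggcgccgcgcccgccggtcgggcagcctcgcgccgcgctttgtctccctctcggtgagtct

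Most of the remaining ligands and receptors of the family that passed the test fell. Of 13 such genes 6 were expressed enough to be tested, and 0 rose and 4 fell in HF-SC GFP, 1 rose and 4 fell in HF-SC Tom, 0 rose and 2 fell in b-KC GFP, and 1 rose and 3 fell in b-KC Tom. The shares of all genes tested called higher and lower were 18.5% and 20.0%, 22.3% and 22.1%, 20.3% and 21.3%, and 22.6% and 23.3%. The medians of the 6 genes were -1.0, -1.22, -0.39 and -0.69. Il31ra, the IL-31 receptor chain that pairs with the product of Osmr, stood at 115, 107 and 106 FPKM in control HF-SCs, 18.7, 28.3 and 29.7 in mutant and 12.4, 19.3 and 24.0 in non-mutant HF-SCs, and at most 0.587 FPKM in any b-KC library. It fell by 2.08 (SE 0.20, adjusted p = 1.09e-06) in HF-SC GFP and by 2.54 (SE 0.20, adjusted p = 1.10e-07) in HF-SC Tom, where Osmr rose. Bulge markers were lower in the same libraries: Cd34 stood at 639.8 to 889 FPKM in HF-SC Co, at 161 to 228 in HF-SC GFP and at 259.6 to 319 in HF-SC Tom. The summed FPKM of 6 bulge markers had medians of 12623, 4438 and 3808 in these groups, with a lowest Co value of 1034 in the library of mouse 828 that lists Krt15 at 0. Their part in the Il31ra result was not tested. Il11ra1, the alpha chain for IL-11, fell in all 4 populations, by 0.76, 1.01, 0.63 and 1.31, and Ctf1, which encodes cardiotrophin 1, fell by 1.23 in mutant HF-SCs, 1.43 in non-mutant HF-SCs and 1.12 in non-mutant b-KCs. The b-KC GFP call of Il11ra1 was lost without mouse 815 (adjusted p = 0.0603) or mouse 825 (adjusted p = 0.0593). The 1 gene that rose, Clcf1, named after its values were seen, did so by 0.54 in HF-SC Tom, a call lost without mouse 825 or 828, and by 0.55 in b-KC Tom, a call lost without mouse 810 or 815 and in the compared groups alone.

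The next list held JAK kinases, the other STATs and their adaptors. Of 14 genes 13 were tested, and 3 rose and 1 fell in HF-SC GFP, 5 rose and 0 fell in HF-SC Tom, 0 rose and 5 fell in b-KC GFP, and 1 rose and 7 fell in b-KC Tom. These counts stand beside the 18.5%, 22.3%, 20.3% and 22.6% of all genes called higher and the 20.0%, 22.1%, 21.3% and 23.3% called lower, and whether the list differed between the cell types was not tested. The medians were -0.09, 0.32, -0.28 and -0.37. Jak1, a kinase bound to gp130, rose by 0.38 in HF-SC GFP (adjusted p = 0.0346), and its GFP change in HF-SCs exceeded that in b-KCs by 0.73 (adjusted p = 0.0197), as its Tom change did by 0.88 (adjusted p = 0.00510). Leaving out mouse 815 ended all 3 of these calls, and the first 2 were also lost without mouse 810, 814 or 828, the first without mouse 817 and the second without mouse 825 (adjusted p up to 0.131). Stat5a rose by 0.57 in HF-SC GFP (adjusted p = 0.00613) and by 0.71 in HF-SC Tom (adjusted p = 0.00117), and Stat5b fell by 0.74 (adjusted p = 3.64e-04) and 0.70 (adjusted p = 3.57e-04) in b-KC GFP and Tom. Jak3, a kinase best known from lymphocytes, rose by 1.17 in HF-SC Tom (adjusted p = 0.00139), from 2.84, 4.04 and 3.59 to 10.6, 9.97 and 7.04 FPKM, in the libraries in which the endothelial markers were highest. The part of those markers was not tested.

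Inhibitors of the pathway other than Socs3 formed a list of 14 genes. All 14 were tested, and 3 rose and 5 fell in HF-SC GFP, 3 rose and 3 fell in HF-SC Tom, 2 rose and 5 fell in b-KC GFP, and 1 rose and 6 fell in b-KC Tom, with medians of -0.25, -0.12, -0.24 and -0.38. The same shares of all genes, 18.5% to 22.6% higher and 20.0% to 23.3% lower, stand beside these counts, and those of the HF-SC fractions lie near them except for the 5 that fell in HF-SC GFP. Ptpn6, which encodes the phosphatase SHP-1, fell in all 4 by 0.82, 1.19, 0.99 and 1.18, and Ptpn1, the phosphatase PTP1B, rose by 0.93 (adjusted p = 2.60e-05) in HF-SC GFP and by 0.63 (adjusted p = 6.82e-04) in HF-SC Tom. Socs1, which like Socs3 blocks JAK kinases and is named after its values were seen, rose where Socs3 fell or did not pass, by 0.86, 0.90, 1.30 and 1.19, each called. In HF-SC GFP the call was lost without mouse 810, 814, 815 or 825 (adjusted p up to 0.0909), and in HF-SC Tom without mouse 825 (adjusted p = 0.0633). Socs1 levels were 4.64, 5.62 and 4.83 FPKM in control, 17.5, 19.0 and 7.76 in mutant and 12.4, 17.7 and 9.25 in non-mutant b-KCs. Socs2 stood at 1.27, 1.0 and 1.08 FPKM in mutant and at 31.6, 26.0 and 5.82 in non-mutant HF-SCs, a difference of -3.10 (SE 0.39, adjusted p = 4.29e-05). As with Il6, the 2 libraries with the highest endothelial sums had the most Socs2, which was not tested further.

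Genes that STAT3 is known to raise were called higher more often than lower in all 4 populations. Of 20 genes 19 were tested. In HF-SC GFP 11 rose and 0 fell, and in HF-SC Tom 11 rose and 1 fell. In b-KC GFP 10 rose and 4 fell, and in b-KC Tom 9 rose and 5 fell. Of all genes tested, 18.5% to 22.6% were called higher and 20.0% to 23.3% lower. The b-KC counts that fell lie near the share called lower. The medians were 1.14, 1.55, 0.88 and 0.59. Bcl3, an NF-kB co-factor, rose by 3.25, 3.40, 2.96 and 2.99, from 1.14 to 5.71 FPKM in the Co libraries to 24.1 to 59.0 FPKM in the DKO* libraries. Lcn2, the antimicrobial lipocalin 2, rose by 7.98, 6.55, 7.89 and 6.28, from 0.502 to 5.96 FPKM to 92.8 to 2024 FPKM. Both genes also answer to NF-kB and other factors. Vegfa, the vascular growth factor, rose by 2.74 in HF-SC GFP (adjusted p = 3.83e-06), and Il4ra, the IL-4 receptor chain, by 2.33 in HF-SC Tom (adjusted p = 3.51e-07). Lrg1 rose by 5.19 in b-KC GFP (adjusted p = 8.55e-05), from 0.478, 0.587 and 0.145 to 143, 86.9 and 9.39 FPKM, with mouse 817 again the lowest. Pim3, a kinase gene of the same list, fell by 1.62 in b-KC Tom (adjusted p = 8.82e-06).

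**Figure D5:**
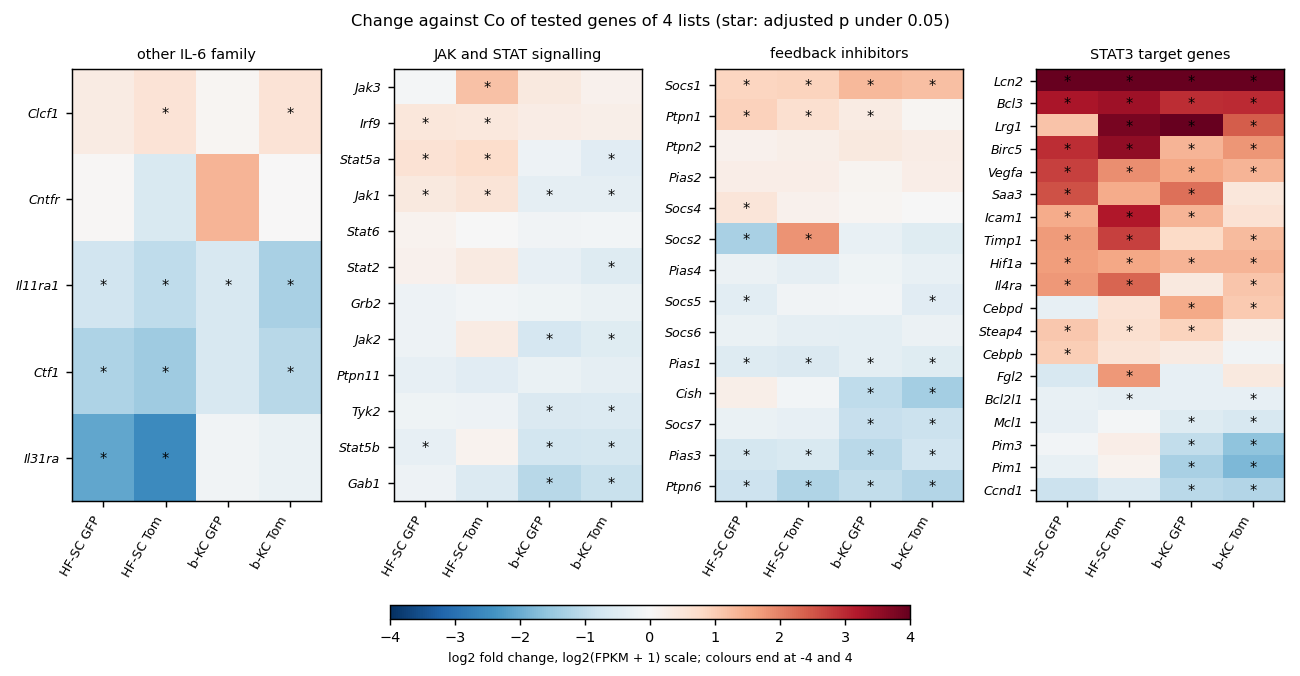
Log2 fold change against Co (colour, limited to -4 to 4) of tested genes of 4 lists (rows) in the 4 DKO* populations (columns), with a star for an adjusted p under 0.05. Lcn2 and Bcl3 are red with a star in all 4 columns of the STAT3 target list. Il31ra is blue with a star in the HF-SC columns, where it fell by 2.08 and 2.54. It has no star in the b-KC columns, where its level was too low for a fall of that size.

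Over the 18 libraries, Lif and Stat3 were the most alike pair of the 9 genes, with a Pearson r of 0.93 on the log2(FPKM + 1) scale, followed by Il6 and Il6st with 0.73 and Osm and Osmr with 0.71, while Lif and Lifr had -0.76 and Lif and Socs3 -0.69. The libraries share mice and fall into groups, so these values describe group differences, and no p is given. The tested genes most like each of the 9 were Gpm6a for Il6 (0.963), Psrc1 for Lif (0.973), Gp49a and Lilrb4 for Osm (0.986 and 0.985), Cerk for Il6ra (0.978), Tacc1 for Il6st (0.960), Mbd5 for Lifr (0.964), Zc3h7a for Osmr (0.942), Map3k14 for Stat3 (0.944) and Phldb1 for Socs3 (0.937). Gp49a and Lilrb4 are close paralogs between which reads may be split. Next in that order were Apold1 and Sept4 for Il6, Aox4 and Etv4 for Lif, Plek after both for Osm, Sox6 and Nat8l for Il6ra, and Ldlrad4 and Cd97 for Il6st. For the others they were Rai14 and Arsa for Lifr, Steap4 and Serpina3m for Osmr, Gpr35 and Afg3l2 for Stat3, and Asap2 and Gpc3 for Socs3.

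The order of levels differed by gene. Il6 and Il6st were highest in HF-SC Tom, Lif and Stat3 in b-KC GFP, and Osmr in both DKO* fractions of HF-SCs, which overlapped with each other. Il6ra and Socs3 were highest in b-KC Co and Lifr in HF-SC Co, which overlapped with HF-SC Tom. For Stat3, b-KC GFP, HF-SC GFP, b-KC Tom and HF-SC Tom followed each other with overlapping libraries, above both Co groups except for the HF-SC Tom library of mouse 814 at 81.9 FPKM, which lay below the b-KC Co libraries at 87.6 to 96.6. HF-SC Tom differed from HF-SC GFP without overlap for Il6 and Il6st, 2 of the 9 genes beside 18.6% of all genes tested, and in b-KCs the fractions did not overlap for Il6, Lif and Lifr, 3 of the 9 beside 15.8%.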

How the data were processed

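Epidermal cells of ear skin were sorted and poly(A) RNA of 18 samples was sequenced from unstranded libraries (SMART-Seq v4 and Nextera XT), so overlapping and antisense genes cannot be told apart. Single-end reads were mapped by the authors with TopHat 2.0.10 and Bowtie 1.0.0 to mouse build NCBI37/mm9. Cufflinks 2.2.1 gave the deposited FPKM values, scaled to transcript length and to library size. Groups and mouse numbers follow the sample labels, and no sample was left out.

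From the FPKM values, 12751 genes that reached 1 FPKM in 3 or more libraries were tested on log2(FPKM + 1) by limma 3.58.1 in R 4.3.3 (trended eBayes), fitting the 6 group means, with Benjamini-Hochberg adjustment over all genes tested within each of 9 comparisons. The step was tested on simulated data. A group's spread covers 3 mice. The members and lists were chosen with earlier results of these data known. The genes named from the lists are the up to 3 with the smallest adjusted p per list and comparison, those said to be named after their values were seen, and the 3 genes most correlated with each member. Depth was implied from FPKM steps of 7151 genes with 1 annotated transcript, of whose low values 76.2% to 81.2% lay within 0.1 of a whole read, and 3 reads on 1 kb were worth 0.114 to 0.182 FPKM. Implied reads of Lif and Osm use the longest annotated transcript of each. PCR reads are not independent molecules, so floors cover counting error only.

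The mouse numbers pair libraries of the same animal. Deviations from the group means correlated at 0.08 to 0.70 within mice, and alternatives took the mouse as a random block in all 18 libraries (consensus correlation 0.27) or as a fixed block in 2 groups. The others were a pseudocount of 0.1, no filter on low values, a fit of the compared groups alone, untrended eBayes, median-ratio rescaling, a stricter threshold and each mouse left out. Gene positions are from the NCBIM37 annotation, and upstream sequences with their own positions from RefSeq on GRCm38.p6, read on the gene's strand with matches on either strand. Summaries and plots used pandas 2.3.3, matplotlib 3.10.9 and numpy 2.4.6 under Python 3.11.15. A few genes that the lists hold and their counts include are not reported here by name.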

Additional observations from a re-analysis of the deposited data

Results flagged for a closer look

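Of the 9 genes, 4 changed differently in HF-SCs and b-KCs by an interaction test. These were 2 of the 9 for the GFP changes, beside 12.5% of all genes tested, and 3 of the 9 for the Tom changes, beside 15.8%. For each, the value is the HF-SC change less the b-KC change on the log2(FPKM + 1) scale. Il6ra differed by 2.10 between the GFP changes (0.87 against -1.23) and by 1.85 between the Tom changes (0.74 against -1.11), with adjusted p of 0.00628 and 0.00996. Il6st differed by 2.96 between the Tom changes (1.99 and -0.97, adjusted p = 2.82e-04), in libraries whose endothelial marker sum was 819 to 2373 FPKM in HF-SC Tom and 5.79 to 12.5 FPKM in b-KC Tom. Lifr differed by 1.60 between the Tom changes (-0.31 and -1.91, adjusted p = 0.00228), with its lowest HF-SC Tom level, 18.6 FPKM, in mouse 817, whose endothelial sum was the lowest of the 3. HF-SC Co held Lifr at 35.1 to 37.8 FPKM with endothelial sums of 83.3 to 141 FPKM. Socs3 differed by 0.98 between the GFP changes (-0.39 and -1.37, adjusted p = 0.0270). Both changes of each pair come from the same mice. Among these calls, only that of Il6st held under every alternative tried. The Il6ra calls were lost without mouse 815 for GFP and without mouse 810 or 828 for Tom. The Lifr call was lost without mouse 815, and the Socs3 call without mouse 810, 815, 825 or 828.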

How the results depend on the processing

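Of 81 tested changes of the 9 genes, 39 were called. At an adjusted p under 0.05, 21 of these were called under every alternative tried, while 18 lost the call in at least 1 and 0 changed sign. Of the 42 not called, 16 were called in at least 1 alternative. With an adjusted p under 0.01 and a log2 change of at least 2, the number of the 9 genes called was 0 in HF-SC GFP against Co, 1 in HF-SC Tom against Co, 0 in either b-KC fraction against Co, 1 in HF-SC Co against b-KC Co and 1 for each difference between cell types. With an adjusted p under 0.01 alone it was 4 in b-KC Tom against Co, 3 in HF-SC Co against b-KC Co and 1 for the GFP difference between cell types. In the 2 groups alone, 1 was called in HF-SC GFP against Tom, and with the random replicate block 1 in b-KC GFP against Tom. The share of all genes called was not taken for an adjusted p under 0.01 alone or for these fits. Whether these counts moved more than those of all genes therefore cannot be told. Among the 9 genes the block, random or fixed, changed no other call than those given for Il6ra, Stat3 and Socs3.

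With 1 mouse left out, the counts ranged from 4 to 7 in HF-SC GFP against Co, 5 to 6 in HF-SC Tom and 5 to 7 in b-KC GFP against Co, and 4 to 8 in b-KC Tom against Co, where 4 was without mouse 828. They ranged from 2 to 5 in HF-SC GFP against Tom and 0 to 2 in b-KC GFP against Tom, both highest without mouse 817, and from 3 to 7 in HF-SC Co against b-KC Co, where 3 was without mouse 810 or 825. For the differences between cell types they ranged from 0 (without mouse 815) to 4 for GFP and from 2 to 5 for Tom, both highest without mouse 817. The cause was not tested.

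Changes of sign were limited to differences that were not called. Without a mouse, the Lif difference between cell types ranged from -0.11 to 0.07 for GFP and from -0.22 to 0.16 for Tom, Osm from -0.11 to 0.08 in HF-SC GFP against Tom and from -0.06 to 0.00 in HF-SC Co against b-KC Co, and Il6ra from -0.10 to 0.28 in HF-SC and from -0.31 to 0.09 in b-KC GFP against Tom. Likewise Il6st ranged from -0.20 to 0.16 in HF-SC GFP against Co and from -0.33 to 0.01 in HF-SC Co against b-KC Co, Lifr from -0.49 to 0.00 in HF-SC Tom against Co, Osmr from -0.19 to 0.10 in HF-SC GFP against Tom and Stat3 from -0.11 to 0.44 for the Tom difference between cell types. The GFP difference of Lif was 0.61 with a pseudocount of 0.1 and 0.00 after median-ratio rescaling. Osm could not be tested without mouse 814 or 817, and its levels in b-KCs stand on few reads.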
